A study of Mus musculus with 15 samples.

Results

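The cornified envelope genes described here were Lor, Ivl, Sprr1a, Sprr1b, Sprr3, Krt1, Krt10, Krtdap, Tgm1 and Tgm3, chosen by symbol, and all 10 were found, each with 1 entry, among 44788 gene symbols. Stomach RNA of C57BL/6 mice was sequenced at 15 timepoints, daily from E12.5 to E18.5, on postnatal days D1, D3 and D5, and in postnatal weeks W1 to W3, W6 and W8, each represented by 1 transcriptome. The mice carried no stated mutation or treatment. The RNA phases of the study served as groups, with 6 timepoints in Ph1 (E12.5 to E17.5), 6 in Ph2 (E18.5 to W2) and 3 in Ph3 (W3 to W8). Whole stomachs were taken, without regard to sex up to W2 and from males thereafter, so that the change to Ph3 and the change to male animals cannot be told apart. The study describes fetal replicates as pools of several embryos and older ones as single stomachs, and does not say whether the sequenced samples were made in the same way. The labels and the study name stomach as the tissue, while its RNA methods name liver.

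The mouse stomach has a glandular part and a forestomach, and the forestomach is lined by a stratified squamous epithelium that cornifies like the skin. In such an epithelium, dividing basal cells with keratins Krt5 and Krt14 give rise to suprabasal cells with Krt1 and Krt10, and the outermost cells replace their plasma membrane by a cornified envelope. Transglutaminases such as Tgm1 and Tgm3 cross-link involucrin (Ivl), loricrin (Lor) and the small proline-rich proteins (Sprr) into this envelope, and Krtdap is a small secreted peptide of differentiating keratinocytes. In whole-organ RNA, fewer squamous cells and less RNA per squamous cell cannot be told apart.

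Levels are given as FPKM, the number of fragments scaled by transcript length and library size, so genes can be compared within a transcriptome. The depth of the libraries relative to E12.5 lay between 0.701 and 1.17, and the sum of FPKM between 745538 and 1344957. At W8 the transcriptome stood apart for squamous genes. The summed FPKM of 9 squamous epithelium markers, defining keratins Krt5 and Krt14 included, was 1193 at W3, 545 at W6 and 13.03 at W8, while that of 10 glandular markers was 214268, 311144 and 273097. Results that rest on Ph3 are therefore given with and without W8.

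Of the 10 genes, 5 lie within the epidermal differentiation complex of chromosome 3, the gene cluster that encodes most envelope precursors. In the coordinates of the files (GRCm38), Lor was at 92080271 to 92083142, Sprr1b at 92436809 to 92438779, Sprr3 at 92456502 to 92458720, Sprr1a at 92483954 to 92485881 and Ivl at 92570899 to 92573790. Krt1 was on chromosome 15 (101845426 to 101850786) and Krt10 on chromosome 11 (99385254 to 99389699). Krtdap was on chromosome 7 (30787905 to 30791083), Tgm1 on chromosome 14 (55700009 to 55713921) and Tgm3 on chromosome 2 (130012340 to 130050399). The RefSeq promoter windows of GRCm38.p6, which run from 250 bases before to 50 bases after a start, matched 9 of the 10 genes. Krt1 had no window. For Ivl, Krt10 and Tgm1 the RefSeq starts lie inside the loci given above, so bases before the start overlap those loci. Stretches of 160 bases directly before the start, read 5′ to 3′ along the gene, are shown for the 5 genes of the complex and for Krtdap, to show where TATAAA and TGANTCA stand. They were chosen after the windows had been searched and include every gene of the set that held both. In capitals are TGANTCA, which takes in the letters of an AP-1 site (TGAGTCA or TGACTCA) but is wider, and TATAAA, the letters of a TATA box. The stretches lie at chr3:92083143-92083302 (Lor), chr3:92573736-92573895 (Ivl), chr3:92485882-92486041 (Sprr1a), chr3:92438780-92438939 (Sprr1b) and chr3:92458721-92458880 (Sprr3) on the minus strand, and at chr7:30787745-30787904 (Krtdap) on the plus strand.
Lor: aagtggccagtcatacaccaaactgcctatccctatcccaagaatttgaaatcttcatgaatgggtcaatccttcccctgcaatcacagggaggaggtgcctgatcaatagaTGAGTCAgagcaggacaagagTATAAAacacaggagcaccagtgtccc
Ivl: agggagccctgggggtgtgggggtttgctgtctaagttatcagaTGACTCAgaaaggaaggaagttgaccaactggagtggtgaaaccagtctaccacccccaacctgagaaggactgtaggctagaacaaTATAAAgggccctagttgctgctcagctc
Sprr1a: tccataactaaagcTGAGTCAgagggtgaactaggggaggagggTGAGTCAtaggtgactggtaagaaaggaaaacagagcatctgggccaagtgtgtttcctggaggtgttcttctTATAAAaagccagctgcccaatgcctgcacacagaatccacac
Sprr1b: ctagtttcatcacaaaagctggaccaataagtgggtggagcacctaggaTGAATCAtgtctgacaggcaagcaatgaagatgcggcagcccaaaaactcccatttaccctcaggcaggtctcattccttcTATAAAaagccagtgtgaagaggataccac
Krtdap: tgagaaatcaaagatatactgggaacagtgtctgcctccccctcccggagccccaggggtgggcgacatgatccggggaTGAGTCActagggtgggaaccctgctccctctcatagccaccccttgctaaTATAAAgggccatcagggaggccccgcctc
Sprr3: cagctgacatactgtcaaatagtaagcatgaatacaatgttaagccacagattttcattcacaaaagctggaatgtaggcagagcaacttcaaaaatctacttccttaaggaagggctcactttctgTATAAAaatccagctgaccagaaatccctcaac

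Each of these stretches held TATAAA, at 27 bases before the start in Lor, 29 in Ivl, 30 in Sprr1b and Krtdap, 33 in Sprr3 and 43 in Sprr1a. TGANTCA, which reads as a match on both strands at once, occurred once in Lor at 48 bases before the start, in Ivl at 116, in Sprr1b at 111 and in Krtdap at 81, and at 2 places in Sprr1a (116 and 146). The match in Sprr1b was TGAATCA, which is not TGAGTCA or TGACTCA, and the matches in the other genes were. Sprr3 held no TGANTCA in its window. Searched on both strands of the whole windows, TGANTCA was found for 5 of the 9 matched genes, against 8.97% of 27025 symbols with a window. TATAAA was found for 8 of the 9, the exception being Tgm1, against 15.7% of symbols. Both together occurred in 5 of the 9 genes (Lor, Ivl, Sprr1a, Sprr1b and Krtdap) and in 1.84% of symbols. CCAAT, searched in the same way, was found for 6 of the 9 and for 41.1% of symbols. These counts describe letters in a window and were not tested as binding sites. The share of symbols with TGAGTCA or TGACTCA only was not counted.

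The 10 genes came up in sequence during fetal life, and Tgm1 and Sprr1a led. Tgm1, the membrane-bound transglutaminase of keratinocytes, was at 1.08 FPKM at E12.5, 6.00 at E13.5, 14.4 at E14.5, 30.1 at E15.5, 58.7 at E16.5 and 64.6 at E17.5. Sprr1a, an envelope cross-bridging protein, was at 0.993, 5.71, 16.0, 68.2, 598.8 and 1118 FPKM at the same timepoints. They were the 2 genes of the set that were higher at E13.5 than at E12.5 with confidence bounds apart. Tgm3, a transglutaminase activated by proteolysis, was between 0.0807 and 0.0938 FPKM up to E14.5, then at 5.76 FPKM at E15.5 and 19.6 FPKM at E16.5.

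Between E15.5 and E16.5 all 10 genes became higher, as did 42.4% of the 16902 genes that reached 1 FPKM anywhere. A level at least 4-fold higher on the scale of FPKM + 1 was seen for 4 of the 10 genes, against a background of 0.799%, and from E15.5 to E17.5 for 7 of the 10, against 1.59%. From E16.5 to E17.5, 9 of the 10 became higher (39.0% of all genes), the exception being Ivl. Sprr3, another small proline-rich precursor, went from 26.8 to 911.8 FPKM between E15.5 and E16.5, a fold of 34.0. Krtdap went from 77.8 to 1092 FPKM, a fold of 14.0. Sprr1b, the close relative of Sprr1a, was listed at 0 from E13.5 to E15.5 and at 9.96 FPKM at E16.5. These are single transcriptomes, and their deposited confidence bounds were apart for 9 of the 10 genes between E15.5 and E16.5. The bounds cover counting error within a library and not differences between animals.

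Lor, Krt1, Krt10 and Ivl came later in that each first reached 50% of its highest value at D1, and the others did so by E17.5. Loricrin, the major envelope protein of the epidermis, was between 14.8 and 26.3 FPKM up to E15.5, at 53.3 at E16.5 and at 576.0 at E17.5. Krt1 and Krt10, the keratin pair of suprabasal cells, were still at 32.4 and 96.0 FPKM at E17.5, which is 3.24% and 9.72% of their highest values. Sprr1a and Sprr1b had by then reached their highest values of all 15 timepoints, 1118 FPKM and 40.6 FPKM. Ivl, an early scaffold of the envelope, was at 1.23 FPKM at E17.5 and never exceeded 9.39 FPKM, so that its level stayed far below that of Lor throughout.

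**Figure D1:**
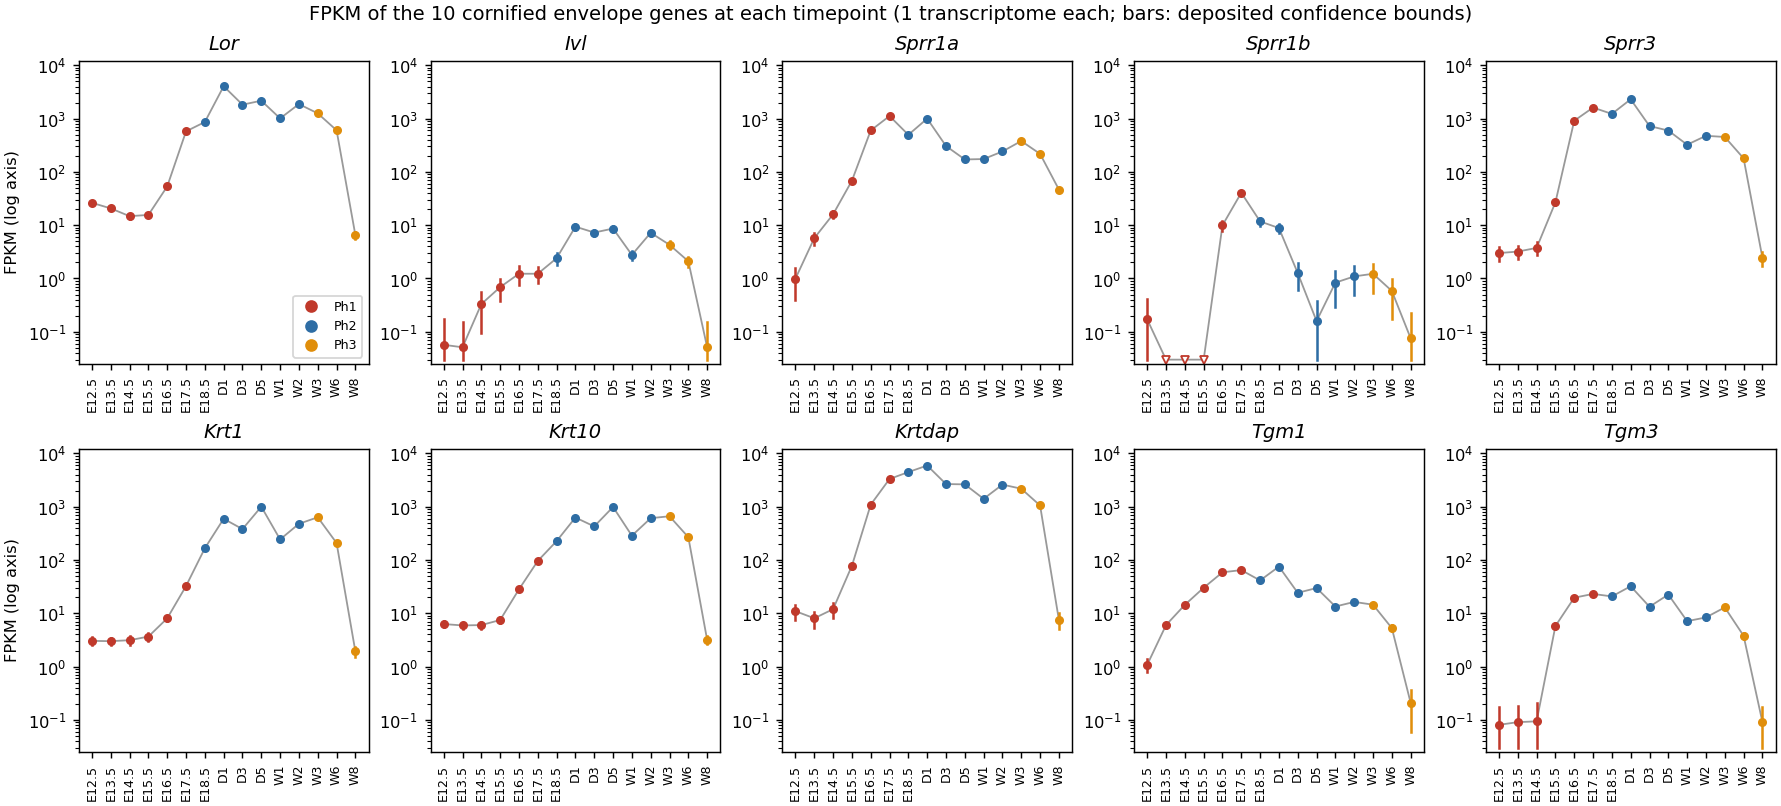
FPKM of the 10 genes (log axis) at the 15 timepoints, coloured by phase, with 1 transcriptome per point and the deposited confidence bounds as vertical bars. Open triangles mark values listed at 0 and, like bounds under 0.03 FPKM, are drawn at the foot of the axis. All 10 genes lie lower at W8 than at W6, and Sprr1b falls from 40.6 FPKM at E17.5 to 0.159 FPKM at D5.

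The day after birth was the peak of the set. From E18.5 to D1, 9 of the 10 genes became higher with confidence bounds apart (41.3% of all genes became higher), the exception being Sprr1b, and from D1 to D3 all 10 became lower (46.0% of all genes). Lor, Ivl, Sprr3, Krtdap, Tgm1 and Tgm3 had their highest value at D1, Sprr1a and Sprr1b at E17.5, and Krt1 and Krt10 at D5. At D1 the order of levels was Krtdap (5922 FPKM), Lor (4049), Sprr3 (2303), Sprr1a (999.3), Krt10 (626.1), Krt1 (592.9), Tgm1 (75.2), Tgm3 (32.1), Ivl (9.39) and Sprr1b (8.84). Within this order the bounds of Krt10 and Krt1 overlapped, as did those of Ivl and Sprr1b, and those of all other neighbours were apart. The 10 genes together made up 1.61% of the sum of FPKM at D1, 0.00674% at E12.5 and 0.00612% at W8.

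After D5 most steps took the genes the same way, but the step from W2 to W3 did not. At W1, 8 of the 10 genes were lower than at D5 (66.9% of all genes were), and Krt1 went from 1000.5 to 242.9 FPKM. From W1 to W2 all 10 became higher (55.4% of all genes), 8 of them with bounds apart. From W2 to W3, 5 became higher and 5 lower (24.5% and 73.7% of all genes), with bounds apart for Sprr1a, Krt1 and Tgm3 among the higher and for Lor, Ivl and Krtdap among the lower. From W3 to W6 all 10 became lower, by 1.74-fold to 3.41-fold, but so did 83.5% of all genes. With 1 transcriptome per timepoint, differences between single animals and changes with age cannot be told apart here.

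**Figure D2:**
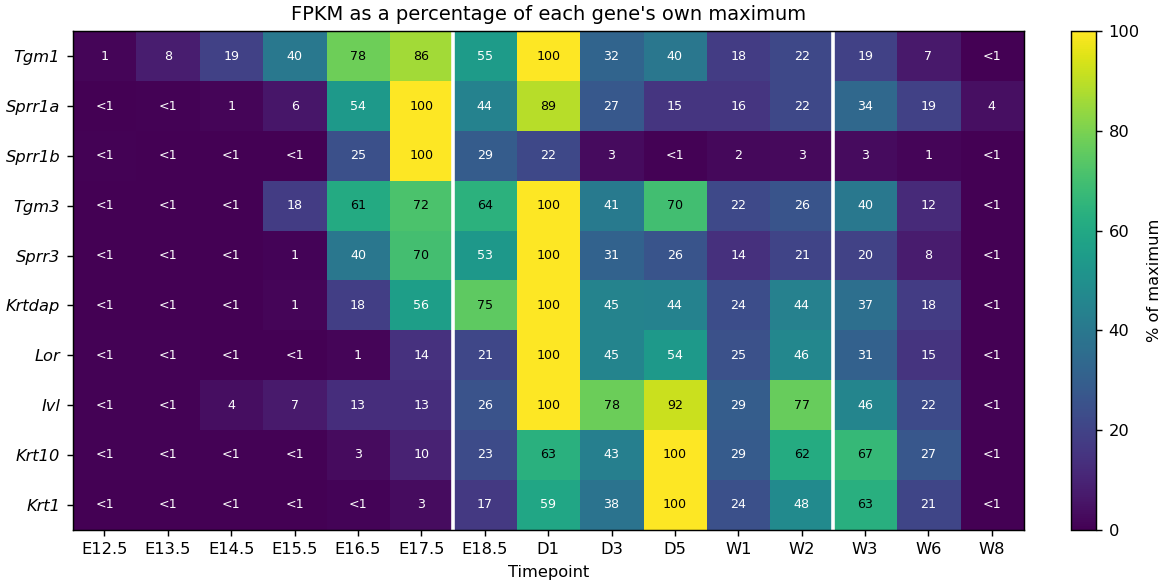
FPKM of each gene as a percentage of its own highest value, with timepoints in columns, white lines between the phases and values under 1% written as <1. Rows start with Tgm1 and Sprr1a, which were already higher at E13.5, and end with those that peaked at D5 (Krt10, Krt1). They are not sorted by percentage, as Tgm3 was at 17.9% and Sprr1a at 6.10% at E15.5. Of the rows, 6 peak at D1.

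In the comparison of Ph2 with Ph1, 4 of the 10 genes were higher in Ph2 at an adjusted p under 0.01 (limma on log2(FPKM + 1), Benjamini-Hochberg adjustment over 16902 genes), where 13.2% of all genes were higher and 35.1% lower. These were Lor, Ivl, Krt1 and Krt10, the later genes of the set. The same 4 passed the moderated F test across the 3 phases, as did 70.8% of all genes. Since the study drew the phases from these transcriptomes, and timepoints stand in for replicates, the p-values measure how far the phases lie apart and include change within a phase.

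Krt1 ranged from 3.00 to 32.4 FPKM in Ph1 with a median of 3.39, and from 165.9 to 1000.5 FPKM in Ph2 with a median of 428.6. Its log2 fold change was 5.91 with a standard error of 1.01 (limma, adjusted p = 0.000279). Krt10 ranged from 5.91 to 96.0 FPKM in Ph1 (median 6.87) and from 225.8 to 987.7 FPKM in Ph2 (median 517.1), a log2 fold change of 5.04 (standard error 1.02, limma, adjusted p = 0.000832). For each keratin, every Ph2 value lay above every Ph1 value.

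Lor ranged from 14.8 to 576.0 FPKM in Ph1 (median 23.5) and from 862.5 to 4049 FPKM in Ph2 (median 1848), and its log2 fold change was 5.39 (standard error 1.11, limma, adjusted p = 0.000944). Ivl ranged from 0.0511 to 1.23 FPKM in Ph1 (median 0.509) and from 2.40 to 9.39 FPKM in Ph2 (median 7.24). Its log2 fold change of 2.13 (standard error 0.39, limma, adjusted p = 0.000414) understates the change, because a pseudocount of 1 exceeds most of its Ph1 values. For both scaffold genes the phases did not overlap. Every Ph2 value thus lay above every Ph1 value for 4 of the 10 genes, against 7.79% of all genes.

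The other 6 genes overlapped between Ph1 and Ph2. Sprr3 ranged from 3.00 to 1611 FPKM in Ph1 (median 15.3) and from 323.6 to 2303 FPKM in Ph2 (median 660.6), with a log2 fold change of 4.30 (limma, adjusted p = 0.0296). Krtdap ranged from 8.05 to 3311 FPKM in Ph1 (median 44.9) and from 1404 to 5922 FPKM in Ph2 (median 2641), its log2 fold change being 5.11 (standard error 1.56, limma, adjusted p = 0.0108). Both had entered the range of Ph2 by E17.5. Without W8 in the fit, Krtdap had an adjusted p of 0.00427 in limma and 5 genes were called, against 13.3% of all genes that were higher in Ph2 in that fit.

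For Sprr1a the log2 fold change was 2.78 (limma, adjusted p = 0.0754), for Tgm3 2.01 (adjusted p = 0.0566) and for Tgm1 0.75 (adjusted p = 0.434). Tgm1 ranged from 1.08 to 64.6 FPKM in Ph1 and from 13.4 to 75.2 FPKM in Ph2. Sprr1b, from 0 to 40.6 FPKM in Ph1 and from 0.159 to 11.8 FPKM in Ph2, had a log2 fold change of 0.21 (limma, adjusted p = 0.855), whose sign turned when any of 6 single timepoints was left out. The median log2 fold change of the 10 genes was 3.54, against -0.22 over all genes, and 3.79 against 0.01 with median-ratio scaling of the transcriptomes. When E17.5 was counted in Ph2, as in the protein phases of the study, 8 of the 10 genes were called, against 14.7% of all genes that were higher in Ph2 in that fit.

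**Figure D3:**
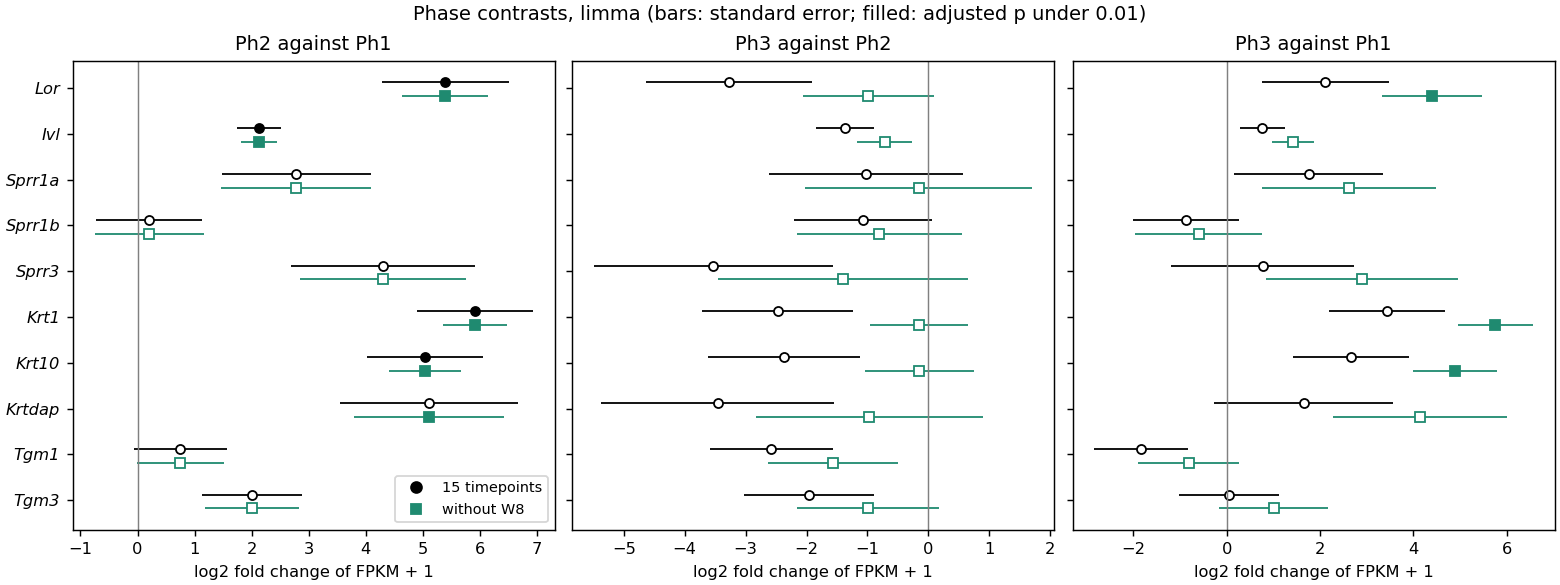
Log2 fold changes of FPKM + 1 with standard errors (limma) for the 3 contrasts between phases, with all 15 timepoints (circles) and without W8 (squares), filled where the adjusted p was under 0.01. From Ph1 to Ph2, 4 circles and 5 squares are filled, from Ph2 to Ph3 none, and from Ph1 to Ph3 only the squares of Lor, Krt1 and Krt10.

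In Ph3 no gene of the set was called against Ph2 by limma, although all 10 estimates were below 0, from -3.53 (Sprr3) to -1.02 (Sprr1a), and 3 had an unadjusted p under 0.05. Over all genes, 37.4% were lower in Ph3 than in Ph2 and 3.41% were higher. The W8 values lay far below the others of Ph3. Lor was at 1254 FPKM at W3, 603.8 at W6 and 6.49 at W8, and Krt1 was at 632.6, 208.2 and 1.92 FPKM. Without W8 the 10 estimates lay between -1.57 and -0.15, again with none called (background 27.9% lower and 2.44% higher). Against Ph1, none of the 10 was called with all timepoints (background 11.7% higher and 55.2% lower), and without W8 Lor, Krt1 and Krt10 were higher in Ph3 (background 10.4% higher), with log2 fold changes of 4.40, 5.76 and 4.89 (limma, adjusted p = 0.00207, 2.66e-05 and 0.000241).

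From W6 to W8 all 10 genes became lower, as did 34.3% of all genes, and 8 of them at least 4-fold on the scale of FPKM + 1, against 0.645% of all genes. The folds on FPKM ranged from 4.67 for Sprr1a (217.8 to 46.7 FPKM) to 140 for Krtdap (1053 to 7.52 FPKM). Only for Sprr1b, at 0.584 and 0.0756 FPKM, did the confidence bounds overlap. At W8, Sprr1a had the highest level of the set, and 8 of the 10 genes, all but Sprr1a and Tgm3, were below their E12.5 values, as were 70.1% of all genes. The bounds were apart for 4 of these 8 (Lor, Krt1, Krt10 and Tgm1).

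Markers of other cell types were compared at the same step. All 9 squamous markers, which do not include the 10 genes, were lower at W8 than at W6, with a summed level 41.8-fold lower. Krt5 went from 27.3 to 1.26 FPKM, Krt14 from 40.8 to 0.366 FPKM and Krt13, the most abundant of them, from 272.9 to 5.96 FPKM. The summed level of the 10 glandular markers was 1.14-fold lower, but 6 of them were higher at W8, Muc6 the most (76.6 to 258.8 FPKM), and Tff1, Gkn1, Gkn2 and Cldn18 were lower. The sum was 1.26-fold lower for smooth muscle markers, of which Myh11 was higher, 1.60-fold lower for red cell markers and 1.11-fold higher for leukocyte markers. Desmosome genes were 1.20-fold lower in sum, of which Jup, Perp and Dsp made up the most (133.6 to 109.9, 134.6 to 87.1 and 45.5 to 49.2 FPKM). The less abundant desmosome genes Pkp1 (3.80 to 0.162 FPKM), Dsg1b (2.80 FPKM to a listed 0), Dsc1 (1.44 to 0.0244 FPKM) and Dsg3 (0.201 to 0.0111 FPKM) were much lower at W8, and were chosen after their values had been seen. The part of squamous tissue content in the low W8 values was not tested.

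**Figure D4:**
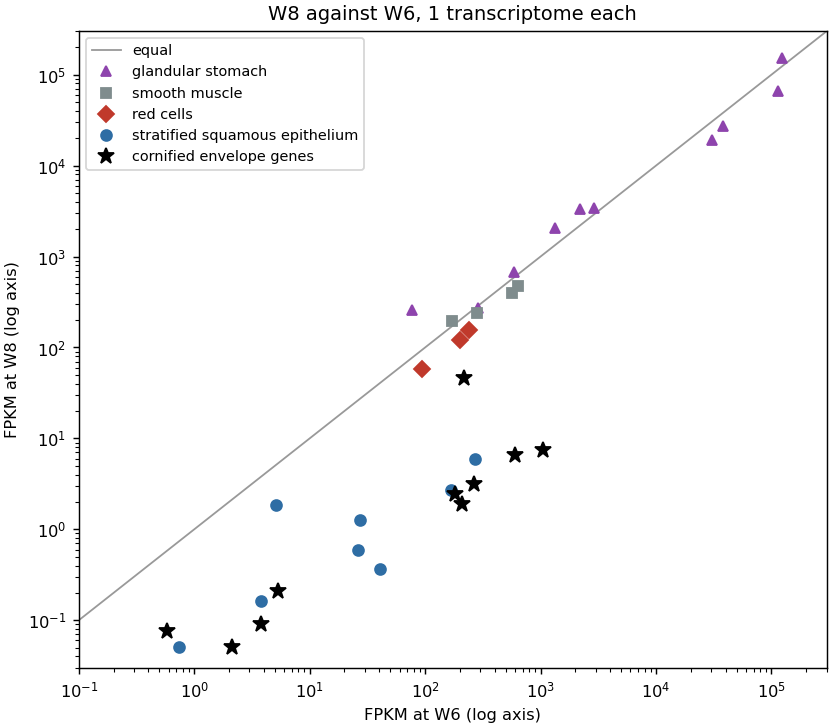
FPKM at W8 against FPKM at W6 (both log axes) for the 10 cornified envelope genes and for markers of 4 cell types, with 1 transcriptome each and a line of equal values. The 10 genes and the squamous markers lie below the line, with sums of 545 FPKM at W6 and 13.03 FPKM at W8 for the squamous markers, and the glandular markers lie on both sides of it, with Muc6 the farthest above (76.6 and 258.8 FPKM).

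To set the envelope genes against the amount of basal squamous RNA, each was divided by the sum of Krt5 and Krt14 (1 added to both on the FPKM scale), and 20 exact two-sided permutation tests were run with Benjamini-Hochberg adjustment. From Ph1 to Ph2, 5 of the 10 ratios were higher, those of Krt1 (by 4.52 on the log2 scale), Lor (3.99), Krtdap (3.71), Krt10 (3.64) and Sprr3 (2.90), each with an adjusted p of 0.0265. The ratio of Krt1 plus Krt10 to Krt5 plus Krt14 was 0.989 at E12.5, where the basal sum was only 9.41 FPKM, and lowest at E15.5 (0.0254). It was 0.123 at E17.5, 0.560 at E18.5, 1.33 at D1, 4.33 at W2, 8.16 at W3, 6.98 at W6 and 3.12 at W8. Thus the sum of Krt1 and Krt10 was below that of Krt5 and Krt14 until E18.5 and above it from D1. This crossing depends on Krt5, which made up most of the basal sum before birth (964.3 FPKM at E17.5, with Krt14 at 79.3). Krt10 by itself exceeded Krt14 at every timepoint except E15.5 and E16.5. Ratios to Krt14 alone were not tested. Tgm1 and Sprr1b had differences of -0.64 and -1.19, with adjusted exact permutation p of 0.0938 and 0.294.

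From Ph2 to Ph3 the differences of all 10 ratios lay above 0, from 0.30 to 2.81, and the 5 not called from Ph1 to Ph2 were called. These were Sprr1a (2.81), Sprr1b (2.75), Ivl (2.47), Tgm3 (1.87) and Tgm1 (1.25), with adjusted exact permutation p from 0.0265 to 0.0476. At W8 the sum of Krt5 and Krt14 was 1.63 FPKM, close to the added 1, so the W8 ratios depend on that constant. For Sprr1a, Ivl, Tgm1 and Tgm3, the W3 and W6 ratios also lay above every Ph2 ratio, and for Sprr1b the W3 ratio did not. The W3 and W6 ratios of Lor, Krt1, Krt10, Krtdap and Sprr3, which were not called, lay above every Ph2 ratio as well. The W8 ratios were lower than those at W3 and W6 for these uncalled genes and higher for the called ones. Leaving out any 1 timepoint of Ph3, W8 among them, left no ratio called. A phase of 2 timepoints leaves few splits, so passing after adjustment is hard and the lack of calls decides little. Adding 0.1 or 0.5 in place of 1 left 3 ratios called.

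The 2 suprabasal keratins shifted in proportion. The ratio of Krt1 to Krt10 was between 0.286 and 0.520 in Ph1 (median 0.486), between 0.735 and 1.01 in Ph2 (median 0.871), and 0.957, 0.778 and 0.605 at W3, W6 and W8. No Ph1 ratio reached the range of Ph2. The ratio of Lor to Sprr1a was highest at E12.5 (26.5), where Sprr1a was at 0.993 FPKM, then 3.62 at E13.5 and lowest at E16.5 (0.0891). It was 1.74 at E18.5, 12.7 at D5 and 0.139 at W8. Both ratios were chosen after their values had been seen, so the 4 exact two-sided permutation tests run on them are no independent evidence. For Krt1 over Krt10 the adjusted exact permutation p was 0.00866 between Ph1 and Ph2 (0.0707 with E17.5 in Ph2) and 0.321 between Ph2 and Ph3. For Lor over Sprr1a it was 0.118 (0.013 without E12.5) and 0.0952 (0.0357 without E18.5).

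**Figure D5:**
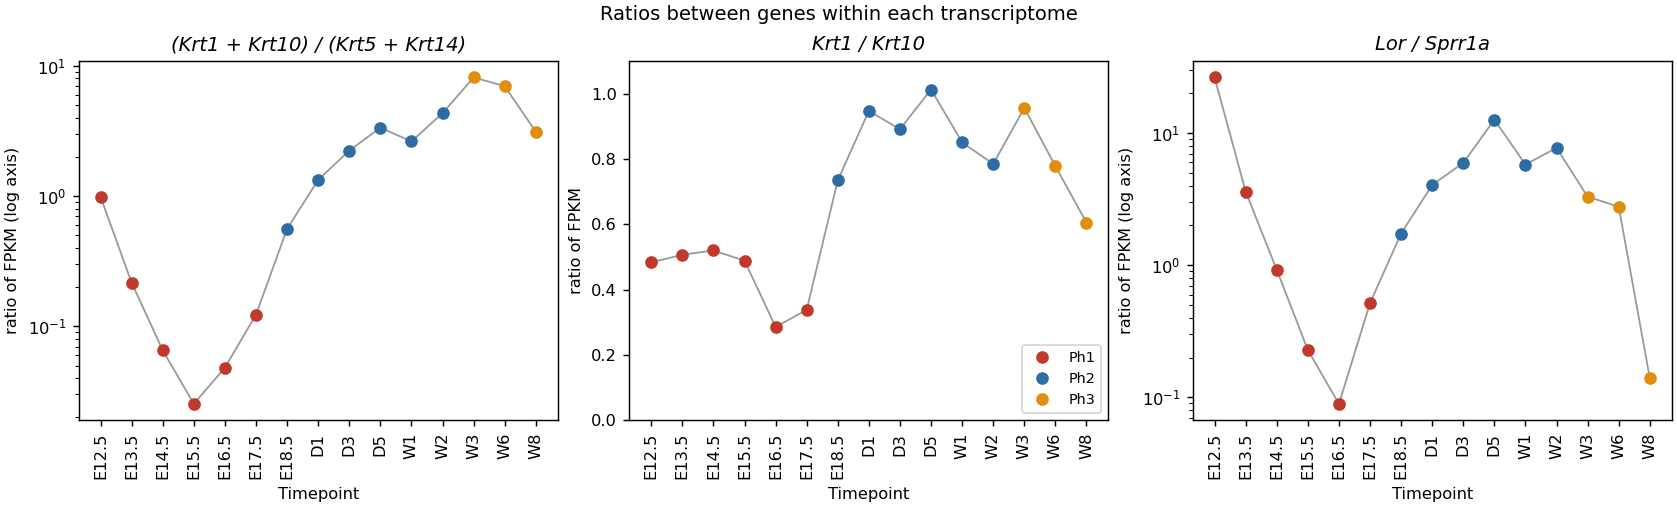
Ratios of FPKM within each transcriptome, coloured by phase: suprabasal over basal keratins (log axis), Krt1 over Krt10 (linear axis from 0) and Lor over Sprr1a (log axis). The keratin ratio falls from 0.989 at E12.5 to 0.0254 at E15.5, climbs to 8.16 at W3 and is 3.12 at W8. Krt1 over Krt10 does not overlap between Ph1 and Ph2.

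Across the 15 timepoints, which share libraries and include the common rise and the low W8, Pearson's r of log2(FPKM + 1) over the 45 pairs of genes ranged from 0.223 to 0.992 with a median of 0.786. The closest pairs were Krt1 and Krt10 (0.992) and Sprr3 and Krtdap (0.986). The least alike were Sprr1b and Krt1 (0.223). Among 12430 other genes, those whose profile was most like the mean standardized profile of the set were Sbsn (r = 0.995), Them5 (0.995), Asprv1 (0.989), Pinlyp (0.988), Serpinb12 (0.987), Vsig8 (0.982), Krt14 (0.982) and Dmkn (0.982). All 8 had their highest value at D1 and a lower value at W8 than at W6, as did the mean profile by which they were picked. Sbsn and Dmkn encode suprabasin and dermokine, secreted proteins of differentiating keratinocytes, and Asprv1 is a protease that acts on filaggrin.

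Of 43 other envelope precursors and cross-linked proteins, 42 were in the files, 40 were tested, and 17 rose from Ph1 to Ph2 with none lower (13 to 26 when single timepoints were left out, 26 without E17.5). Over all genes, 13.2% were higher and 35.1% lower in that contrast. The largest called rises were those of 3 late cornified envelope genes, Lce1a1 (log2 fold change 6.41), Lce1c (6.06) and Lce3f (5.36), whose highest levels were 700.7, 381.1 and 638.2 FPKM at D1. Cnfn, which encodes cornifelin, reached 2274 FPKM at D1, near the 2303 FPKM of Sprr3, and had a log2 fold change of 4.20 (limma, adjusted p = 0.0419). Sprr2a1 and Sprr2a2, relatives of the 3 Sprr genes of the set, were highest at W3, at 2771 and 2759 FPKM, and were at 1011 and 1006 FPKM at W8. They are near-identical copies, so the division of reads between them is uncertain. Against Ph2, with 37.4% of all genes lower, only Stfa1, a stefin, was called in Ph3 (log2 fold change -3.21, limma, adjusted p = 0.000726). Without W8 it was called again (-2.93, limma, adjusted p = 0.00525), and Sprr2e, at most 1.50 FPKM, was higher (0.93, limma, adjusted p = 0.00766). The number of these precursors called lower in Ph3 depended on the setting. It was 4 without W3, 8 without E17.5, 5 with a fixed sum of FPKM and 10 with E17.5 in Ph2.

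Within the epidermal differentiation complex, from S100a13 to S100a10 (chromosome 3, 90514232 to 93564645), the files held 107 symbols, of which 71 reached 1 FPKM, 30 reached 100 FPKM and 22 were listed at 0 throughout. Outside the set, 66 were tested and 32 rose from Ph1 to Ph2, with none lower, against 13.2% higher and 35.1% lower over all genes. The 17 envelope precursors that rose, all but Cdsn, are among these 32, so the counts of these lists are not separate results. Among the 32 were Lce1m and Lce1b, with log2 fold changes of 6.33 and 6.06. Over all genes, 3.41% were higher and 37.4% lower from Ph2 to Ph3. Of the 66, the number called was 1 higher, 9130204L05Rik (4.12), and 2 lower, Lce6a (-2.78) and S100a5 (-1.64). Without W8 these numbers were 2 (9130204L05Rik and Sprr2e) and 1 (S100a5), and 13 were lower without W3 and 9 without E17.5. S100a11, a calcium-binding protein that is cross-linked into envelopes, had its maximum of 1876 FPKM at E17.5 and differed by 0.01 on the log2 scale between Ph1 and Ph2 (limma, adjusted p = 0.985). Members of the Lce1 family are close paralogs, and reads may be shared between them.

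Among 31 tested proteases, protease inhibitors and lipid barrier genes, 11 rose from Ph1 to Ph2 and none fell, against 13.2% higher and 35.1% lower over all genes. The number that rose was 20 without E17.5 and 7 without D1 or without any 1 timepoint from E12.5 to E15.5. The 11 included Spink5 (log2 fold change 4.12), an inhibitor of kallikreins, Serpinb12 (4.08) and Klk7 (3.77), a kallikrein that acts in desquamation. Asprv1, the most abundant, reached 1762 FPKM at D1 with a log2 fold change of 4.22 (limma, adjusted p = 0.0216). Klk10 reached 160.1 FPKM at E17.5 with an adjusted p of 0.137 in limma. From Ph2 to Ph3, with 37.4% of all genes lower, none of the 31 was called by limma, and 10 had an unadjusted p under 0.05. Without W8 again none was called, without W3 4 were lower and without E17.5 1. Of the 3 other transglutaminases tested, Tgm2, the widely expressed tissue transglutaminase, fell from Ph2 to Ph3 (log2 fold change -1.77, limma, adjusted p = 0.000278, and -1.58 without W8, adjusted p = 0.00226), and F13a1 (16.3 FPKM at most) and Tgm5 (1.42 FPKM at most) were not called.

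Of 14 squamous keratins tested, 4 rose from Ph1 to Ph2 and none fell, against 13.2% higher and 35.1% lower over all genes. The number that rose was 2 without any 1 of E12.5 to E15.5, D1 to D5 or W2. The largest called changes were in Krt78 (log2 fold change 3.02), Krt23 (2.63) and Krt79 (2.53). Krt13 and Krt4, the keratins of non-cornifying squamous layers, were highest at E17.5, at 5133 and 2595 FPKM, before the Krt1 and Krt10 maximum at D5. From Ph2 to Ph3, 3 keratins were lower, against 37.4% of all genes, namely Krt15 (-5.03), Krt17 (-2.89) and Krt77 (-1.92). Without W8 only Krt77 was called, against 27.9% of all genes lower, and without W6 none. Of 12 desmosome genes, 3 were higher in Ph2 (Dsc1 by 2.53, Dsg1a by 1.18 and Dsg2 by 0.79), against 13.2% of all genes. In Ph3, 1 was lower (Dsg1a by -1.41), against 37.4% of all genes, and it was not called without W8 or without W6. Without E17.5, 5 were higher in Ph2 and 3 lower in Ph3, and without W3 2 were lower in Ph3. Perp, Jup and Dsp, the most abundant of them, reached 518.2, 198.6 and 88.2 FPKM and were not called.

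The transcription factors of squamous epithelium were divided, with 3 of 23 higher (5 without E17.5) and 3 lower in Ph2 than in Ph1. With all timepoints, neither number exceeded the share over all genes, 13.2% higher and 35.1% lower. Hr (log2 fold change 1.85), Klf4 (1.50) and Cebpb (0.90) were higher, Klf4 being a factor required for the skin barrier. Sox2 was lower in Ph2 (-0.83) and lower again in Ph3 (-1.73). In Ph3, 7 of the 23 were lower than in Ph2, against 37.4% of all genes. The number for the list was 3 without W8, against 27.9% of all genes, and 2 without W6. Among the 7 were Grhl3 (-2.53), a barrier factor, and Trp63 (-2.30), the master regulator of stratified epithelia. Hopx and Elf3 reached 223.5 FPKM at D1 and 219.8 FPKM at W6 and were not called in either contrast.

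Markers of other tissues were read in the same way. The shares over all genes were 13.2% higher and 35.1% lower in Ph2 than in Ph1. From Ph2 to Ph3 they were 3.41% higher and 37.4% lower. Of 10 genes fixed as markers of cornified epidermis and hair, 4 were tested and 3 were higher in Ph2 (Lce1a1, Casp14 and Krt77). All 3 are also counted in the lists above. The fourth, the hair keratin Krt31, was at 2.16 FPKM at E17.5 and listed at 0 from D5 on, and had a log2 fold change of -0.68 (limma, adjusted p = 0.0133, and below 0.01 without E12.5 or without E13.5). The epidermal and hair follicle genes Krt2, Flg2, Krt25, Krt33a and Krt71 did not exceed 0.280 FPKM at any timepoint, and Krt27 was listed at 0 throughout. Casp14 reached 13.6 FPKM at D1 and Krt77 9.44 FPKM at D5. Of the 9 squamous markers none was called between Ph1 and Ph2 by limma (2 with an unadjusted p under 0.05, and 1 called without any 1 of E16.5, E17.5, W3 or W8), and Krt15 and Trp63 were lower in Ph3 than in Ph2, but neither without W8 or without W6. Of 10 glandular markers, 8 rose from Ph1 to Ph2 and 5 from Ph2 to Ph3, led in Ph3 by Muc5ac (6.15), Pgc (6.04) and Gkn1 (3.54). The latter number was 4 without W8, Muc6 being lost, 3 without W6 and 9 without E17.5. Of 4 smooth muscle markers, 2 (Des and Myh11) were higher in Ph2. The number higher was 1 without any 1 of E13.5, E14.5, E18.5, D1, D3, D5 or W1. Acta2 was lower in Ph3, which was not called without any 1 of D3, D5, W6 or W8. All 3 globin genes (Hba-a1, Hbb-bs and Hbb-bt) were lower in Ph2 than in Ph1, a number that was 0 with E17.5 in Ph2. Neither leukocyte gene tested (Ptprc and Itgam) was called by limma (1 with an unadjusted p under 0.05 between Ph1 and Ph2). The part of these changes in tissue makeup in the values of the envelope genes was not tested.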

How the data were processed

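Whole-stomach RNA of C57BL/6 mice was analysed at 15 timepoints, with 1 transcriptome each. The authors deposited FPKM, with a pair of confidence bounds around each value. The study's methods name HISAT2, StringTie and a GENCODE annotation, whereas the submitters' processing notes name Bowtie 0.12.2, FastQC and GRCm38.p2. The bounds and FPKM were used as deposited, and their read depth is not given in the sources used here. Relative depth was read from entries whose bounds were those of a single fragment.

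Entries that share a symbol were added up. The 16902 genes that reached 1 FPKM at any timepoint were tested on log2(FPKM + 1) with limma 3.58.1 in R 4.3.3, with Benjamini-Hochberg adjustment and a threshold of 0.01, the timepoints of a phase serving as its replicates. Ratios to Krt5 plus Krt14, and those of Krt1 to Krt10 and of Lor to Sprr1a, were compared by exact two-sided permutation tests with a threshold of 0.05. Python 3.11.15, pandas 2.3.3, NumPy 2.4.6 and SciPy 1.17.1 were used. The scripts were tested on simulated data.

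The 10 genes and all lists were chosen with earlier results of these data known. All 10 genes are named, and from each list the 3 genes of highest FPKM and up to 3 called genes with the largest change per contrast, as well as the 8 genes of the most similar profile. Alternatives were other scalings, pseudocounts, filters, entries, phase borders, priors and tests, and leaving out each timepoint. Proteins were not analysed here.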

Additional observations from a re-analysis of the deposited data

Results flagged for a closer look

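Within a phase, the highest or lowest timepoint of each gene was compared with its neighbour on log2(FPKM + 1) by Dixon's ratio for the 20 combinations of the 10 genes with Ph1 and Ph2. Chance would flag about 1 in 20 such groups. The only value past the limit for 6 timepoints (0.625) was Lor in Ph1, where E17.5, at 576.0 FPKM, stood apart from the others with a ratio of 0.656. Ph3, with 3 timepoints, was not examined in this way, so its W8 values were not covered.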

How the results depend on the processing

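No paired analysis was possible because the labels carry no replicate numbers and each timepoint has 1 transcriptome. Of 810 values of single genes under 27 alternatives, 775 kept their direction and side of the threshold, 20 came to pass it and 15 changed sign. The number of the 10 genes called across the phases (4) was 2 with a one-way test on untransformed FPKM and 4 to 5 when single timepoints were left out. From Ph1 to Ph2 (4) it was 8 with E17.5 in Ph2, and 4 to 6 without single timepoints. From Ph2 to Ph3 (0) it was 1 with a fixed sum of FPKM and 0 to 1 without single timepoints (1 without W3), and from Ph1 to Ph3 (0) it was 1 with median-ratio scaling and 0 to 3 (1 without E17.5, 3 without W8).

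The 6 lists of related genes together had 38 calls higher in Ph2 than in Ph1, which became 71 with E17.5 in Ph2, 19 with E18.5 in Ph1 and 26 to 61 without single timepoints (61 without E17.5). Calls lower in Ph2 (3) became 1 with median-ratio scaling and 1 with E17.5 in Ph2, and 2 to 3 without single timepoints. Calls higher in Ph3 than in Ph2 (0) became 1 without W8, the range being 0 to 1. Calls lower in Ph3 than in Ph2 (13) became 8 with median-ratio scaling, 7 with quantile normalization, 25 with a fixed sum, 30 with E17.5 in Ph2 and 4 to 24 without single timepoints (4 without W6, 6 without W8, 22 without W3, 24 without E17.5). Ratios to basal keratins called from Ph1 to Ph2 (5) ranged from 4 to 7, and from Ph2 to Ph3 (5) they became 3 with a pseudocount of 0.1 and 3 with 0.5, and 0 to 5 without single timepoints.

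Over all genes, the numbers moved with the scale: with median-ratio scaling 3447 genes were higher and 3109 lower in Ph2 than in Ph1 (2229 and 5935 as reported), and 2515 higher and 1751 lower in Ph3 than in Ph2 (577 and 6328). Higher in Ph3 than in Ph2 were 1728 genes with quantile normalization, 250 with a fixed sum and 301 without W6, and lower were 1293 with quantile normalization and 2822 without W6. From Ph1 to Ph3 (1984 higher, 9329 lower) they were 4929 and 4634 with median-ratio scaling, 4014 and 5251 with quantile normalization, and 1124 were higher with a fixed sum.

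Signs turned for 3 genes whose changes had not been called. Sprr1b from Ph1 to Ph2 (0.21) was -0.49 with E18.5 in Ph1 and ranged from -0.18 to 0.98 without single timepoints, with values of -0.05 without E12.5, -0.09 without E13.5, E14.5 or E15.5, -0.18 without E18.5 and -0.11 without D1. Sprr3 from Ph1 to Ph3 (0.77) was -0.62 without W3 and 2.89 without W8. Tgm3 from Ph1 to Ph3 (0.05) was -0.23 with a fixed sum, -0.30 with E18.5 in Ph1, and from -0.82 without W3 to 1.01 without W8. The ratio of Krt1 to Krt10 differed by -0.17 (log2) from Ph2 to Ph3 and by 0.019 with E17.5 in Ph2, an alternative added for the ratios after the data had been seen. The cause of these changes was not tested. With 1 transcriptome per timepoint, spread between animals of the same age could not be estimated, and the 19 of 150 levels of the set that were under 1 FPKM rest on few fragments (Sprr1b at 8 timepoints, Ivl at 5, Tgm3 at 4, Sprr1a at E12.5 and Tgm1 at W8).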
